A study of Mus musculus with 120 samples.

Results

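Striatal projection neurons, the GABA-releasing medium spiny neurons that make up most of the striatum, share a set of genes whichever output pathway they belong to. The genes described here are 9 of these, Ppp1r1b, Rgs9, Rasd2, Pde10a, Adcy5, Gnal, Arpp21, Bcl11b and Foxp1. They were matched by symbol to the count tables, and all 9 of 9 were found among the 55573 genes listed. RNA was sequenced from 5 brain regions of 24 C57BL/6J mice, with 4 mice in each of 3 genotypes at each of 2 ages, giving 120 libraries in 30 groups of 4. The ages were 10 and 26 weeks after birth. Striatum, cortex, hippocampus and cerebellum were taken from all mice. The hindbrain sample was brainstem in the younger mice and medulla in the older.

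The 3 genotypes were WT, 175Q and 175QK772T. The 175Q mice carried 1 Atxn1 allele with an expanded repeat and 1 allele of the normal mouse form (Atxn1 175Q/2Q), a knock-in model of spinocerebellar ataxia type 1 in which the mutant ataxin-1 protein is made from the gene's own locus in every cell that uses it. The 175QK772T mice carried the same expansion together with the K772T change, which alters the nuclear localization signal of the mutant protein (Atxn1 175QK772T/2Q). The mutant column names of the 26-week table, and none of the 10-week table, give a shorter repeat than the genotype labels, and the genotype labels were used. Each group held 2 females and 2 males, except that the 175QK772T group at 10 weeks held 3 females and 1 male. The ages were prepared and sequenced in separate batches, so that age and batch cannot be told apart.

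In a projection neuron, dopamine arriving from the midbrain acts on receptors that raise or lower cyclic AMP. Gnal encodes Golf, the stimulatory G protein alpha subunit that stands in for Gs in the striatum, and Adcy5 encodes adenylyl cyclase 5, the main striatal enzyme making cyclic AMP. Pde10a breaks cyclic AMP and cyclic GMP down, and Ppp1r1b encodes DARPP-32, which inhibits protein phosphatase 1 once protein kinase A has phosphorylated it. Rgs9, through its striatal splice form RGS9-2, shortens signalling by G proteins coupled to dopamine and opioid receptors. Rasd2 encodes Rhes, a small GTP-binding protein that restrains receptor signalling to cyclic AMP, and Arpp21 encodes a cyclic AMP-regulated phosphoprotein that binds RNA. Bcl11b (CTIP2) and Foxp1 are transcription factors needed for these neurons to differentiate. Loss of several of these transcripts is well known from the striatum in Huntington's disease models, another disorder of an expanded glutamine repeat.

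The 10-week libraries held from 68.2 to 104 M counts in total, and the 26-week libraries, which were sequenced less deeply, from 28.03 to 57.3 M. Levels within a region are given in CPM, the count relative to the library's total, after scaling by edgeR's trimmed mean of M values (TMM), and levels across genes or regions in FPKM, which also divides by gene length. Log2 fold changes carry standard errors from edgeR's quasi-likelihood fit with sex as a term, and a gene is called where its Benjamini-Hochberg adjusted p over all genes tested is below 0.05. Atxn1 itself was read as well. Counts per gene do not tell the mutant allele from the normal one, so these values cannot check the labels. Atxn1 was at 115, 115, 129 and 99.6 CPM in the 4 WT striata at 10 weeks and 116, 107, 111 and 108 CPM in the 175Q striata, ranges that overlap. The Atxn1 log2 fold change in 175Q against WT was -0.05 ± 0.06 (adjusted p = 0.548) at 10 weeks and -0.19 ± 0.08 (adjusted p = 0.0911) at 26 weeks. In 175QK772T against 175Q it was 0.15 ± 0.06 (adjusted p = 0.276) and 0.17 ± 0.08 (adjusted p = 0.205).

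Several 26-week libraries stood apart from the rest of their group. WT striatum replicate 3 was the lowest of its group for all 9 genes and carried 753 CPM of Slc17a7, a marker of cortical excitatory neurons, against 149 to 329 CPM in the other WT striata. WT cortex replicate 1 had 14.2 CPM of Drd2, a striatal receptor, and 270 CPM of Slc17a7, where the other WT cortices had 0.727 to 2.18 CPM and 1073 to 1106 CPM. It also had 7117 CPM of Mbp, an oligodendrocyte marker, against 2416 to 2931 CPM in the others. Its Ppp1r1b level lay within the range of the others, and its Rasd2 and Arpp21 levels lay below them. What set this library apart was not tested. WT cerebellum replicate 1 had 7.25 CPM of Drd2 against 0.675 to 1.23 CPM in the other WT cerebella. Cerebellum replicates 175Q 4 and 175QK772T 2 had 13.5% and 11.5% of their counts on mitochondrial genes, against 3.89% to 5.01% in the other 10. The genotype comparisons in striatum, cortex and cerebellum at 26 weeks are given with and without these libraries where a call or a count changed.

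In WT mice the 9 genes were higher in striatum than elsewhere. At 10 weeks all 36 of 36 pairs of gene and other region passed the test, in a fit over the 20 WT libraries with the mouse as a block, and at 26 weeks 35 of 36 did. The share of all genes higher in striatum was 27.7% against cortex, 25.2% against hippocampus, 35% against cerebellum and 31.5% against brainstem at 10 weeks. At 26 weeks it was 17.7% against cortex, 16.2% against hippocampus, 31.5% against cerebellum and 29.6% against medulla. The exception was Bcl11b against hippocampus at 26 weeks, with a log2 difference of 1.16 (adjusted p = 0.162). Without the mouse of WT replicate 1 that difference was 1.12 and was called (adjusted p = 5.66e-06). In the WT libraries of both ages, every striatum lay above every library of the other regions for each of the 9 genes, in FPKM.

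**Figure D1:**
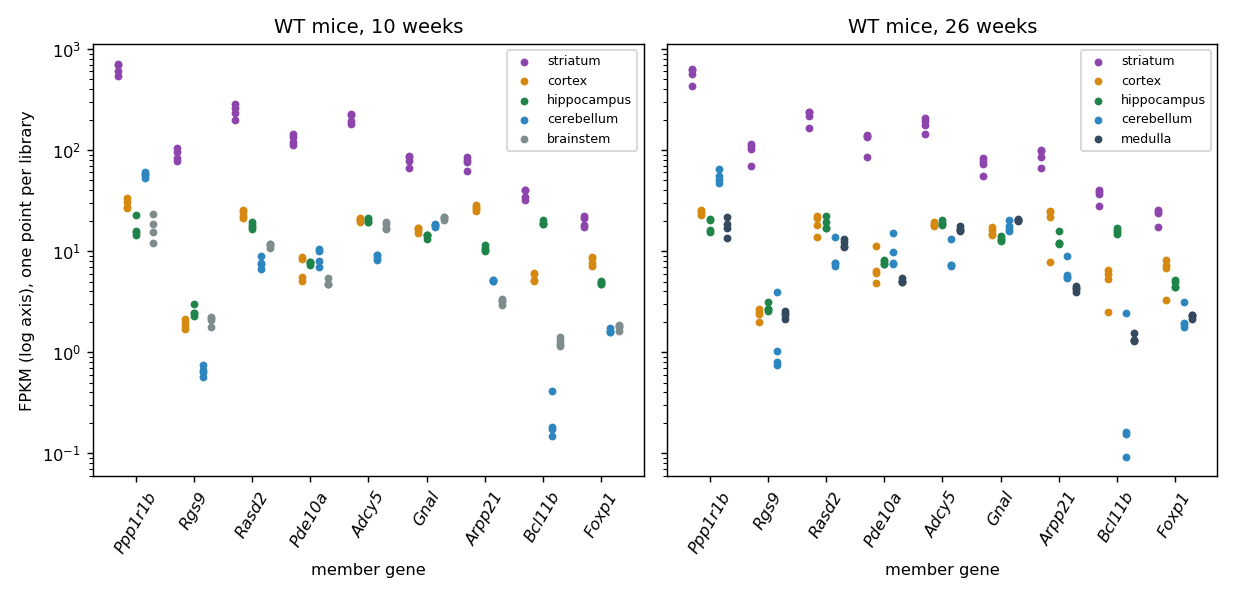
Level of each gene in FPKM (log axis) in every WT library, at 10 weeks (left) and 26 weeks (right), coloured by region. The 4 striatum points of each gene lie above all points of the other regions, from 639 ± 76.9 FPKM for Ppp1r1b to 19.7 ± 2.51 FPKM for Foxp1 at 10 weeks, and the lone high cerebellum points at 26 weeks belong to WT replicate 1.

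Per length, the order of the WT striatal levels at 10 weeks ran from Ppp1r1b at 639 ± 76.9 FPKM (SD, n = 4) through Rasd2 at 244 ± 37.9, Adcy5 at 206 ± 22.7 and Pde10a at 128 ± 15.1 FPKM. Rgs9 at 89.8 ± 12.1, Gnal at 79.1 ± 9.24 and Arpp21 at 75.6 ± 9.54 FPKM followed. Rasd2 and Adcy5 did not differ beyond their SDs, and neither did Rgs9, Gnal and Arpp21. The transcription factors were lowest, Bcl11b at 36.8 ± 4.47 and Foxp1 at 19.7 ± 2.51 FPKM. The order at 26 weeks was the same except that Arpp21 stood above Gnal, with Ppp1r1b at 559 ± 90.6 and Foxp1 at 22.97 ± 3.71 FPKM.

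The genes differed in how far they were confined to the striatum. Rgs9 stood far above every other region, with log2 differences of 5.12 to 7.07 at 10 weeks, and Gnal, which is used widely in the brain, had 1.88 to 2.46. Ppp1r1b was next highest in the cerebellum, at 57.1 ± 3.42 FPKM. Arpp21 and Foxp1 were next highest in the cortex, at 26.8 ± 1.45 and 7.97 ± 0.723 FPKM. Bcl11b was next highest in the hippocampus, at 19.1 ± 0.943 FPKM, where dentate and CA1 neurons are known to use it, and was nearly absent from the cerebellum at 0.229 ± 0.122 FPKM.

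To show the sequence at annotated start sites of these genes, and because the 9 genes fell together in the 175Q striatum, the bases around those sites were searched for a few motifs. RefSeq promoter windows (GRCm38.p6, 250 bases before to 50 after the start) were matched for 7 of the 9 genes, 18 windows in all. Arpp21 had 9 windows and Foxp1 had 3, and which start sites the striatum uses was not tested. The octamer of Cic, the repressor that binds ataxin-1, was searched as TGAATGAA, TGAATGGA, TCAATGAA and TCAATGGA on both strands, and was in none of the 18 windows and in 3.84% of all 32851. The cyclic AMP response element TGACGTCA was in none and in 1.79% of all, and the forkhead motif TGTTTAC in none and in 3.65%. The shorter core TGACG, which the full element contains, was in 4 of the 18 windows, 3 of Arpp21 (of which 2 overlap) and 1 of Foxp1, and in 20.8% of all. A match is a string of letters and not a site, and no match says only that these letters are not in the window. The windows shown are those of 3 signalling genes with a single RefSeq window each, Rasd2 (chr8:75213694-75213993, plus strand), Rgs9 (chr11:109298132-109298431, minus strand) and Adcy5 (chr16:35154614-35154913, plus strand), which hold no match. With them are 1 window each of Arpp21 (chr9:112185900-112186199, minus strand) and Foxp1 (chr6:99028249-99028548, minus strand), where capitals mark the core TGACG or its reverse complement.
Rasd2: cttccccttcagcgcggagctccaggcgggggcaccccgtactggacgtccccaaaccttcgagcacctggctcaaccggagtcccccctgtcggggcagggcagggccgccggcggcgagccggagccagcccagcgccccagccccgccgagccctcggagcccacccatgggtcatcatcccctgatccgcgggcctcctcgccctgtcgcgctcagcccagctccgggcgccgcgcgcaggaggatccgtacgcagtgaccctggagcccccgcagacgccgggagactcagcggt
Rgs9: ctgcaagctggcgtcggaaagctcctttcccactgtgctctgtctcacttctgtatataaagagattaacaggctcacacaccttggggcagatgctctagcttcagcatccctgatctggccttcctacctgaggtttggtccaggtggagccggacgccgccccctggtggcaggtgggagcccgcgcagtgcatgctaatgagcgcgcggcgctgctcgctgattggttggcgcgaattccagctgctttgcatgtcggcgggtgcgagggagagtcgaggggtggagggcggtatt
Adcy5: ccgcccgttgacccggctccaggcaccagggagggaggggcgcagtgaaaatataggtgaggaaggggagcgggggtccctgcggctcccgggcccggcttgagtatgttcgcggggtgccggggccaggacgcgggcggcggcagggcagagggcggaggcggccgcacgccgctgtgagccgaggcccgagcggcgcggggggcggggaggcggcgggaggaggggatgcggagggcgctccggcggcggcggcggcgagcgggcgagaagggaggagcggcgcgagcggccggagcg
Arpp21: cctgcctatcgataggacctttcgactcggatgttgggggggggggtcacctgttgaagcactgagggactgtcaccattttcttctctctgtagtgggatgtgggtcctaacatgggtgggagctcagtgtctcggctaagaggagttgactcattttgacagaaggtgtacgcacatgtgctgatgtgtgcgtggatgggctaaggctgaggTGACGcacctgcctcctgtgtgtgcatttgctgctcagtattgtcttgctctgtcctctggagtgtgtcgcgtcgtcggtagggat
Foxp1: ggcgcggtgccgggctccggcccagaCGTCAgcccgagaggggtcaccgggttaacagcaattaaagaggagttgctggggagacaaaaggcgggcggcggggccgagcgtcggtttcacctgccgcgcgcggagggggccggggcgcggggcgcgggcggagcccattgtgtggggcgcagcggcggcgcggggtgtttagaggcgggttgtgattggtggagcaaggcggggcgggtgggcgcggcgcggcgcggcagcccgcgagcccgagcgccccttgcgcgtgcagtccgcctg
The windows of Rasd2, Adcy5 and Foxp1 hold 74.7%, 79.0% and 75.3% G and C, and those of Rgs9 and Arpp21 60.3% and 54.7%.

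In the striatum of 175Q mice all 9 genes were lower than in WT at both ages. At 10 weeks the median log2 fold change of the 9 was -1.28 where that of all 20998 genes tested was 0.01. At 26 weeks it was -2.59 where that of all 19692 genes tested was within 0.01 of 0. All 9 of 9 passed the test in each case, beside 32.7% of all genes at 10 weeks and 45.4% at 26 weeks, and for each of the 9 every 175Q library lay below every WT library. In bulk tissue fewer projection neurons and less RNA per neuron cannot be told apart. The 4 libraries of a group came from different mice. The p-values rest on the spread between mice of the same genotype, estimated together over the 12 libraries of all 3 genotypes.

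**Figure D2:**
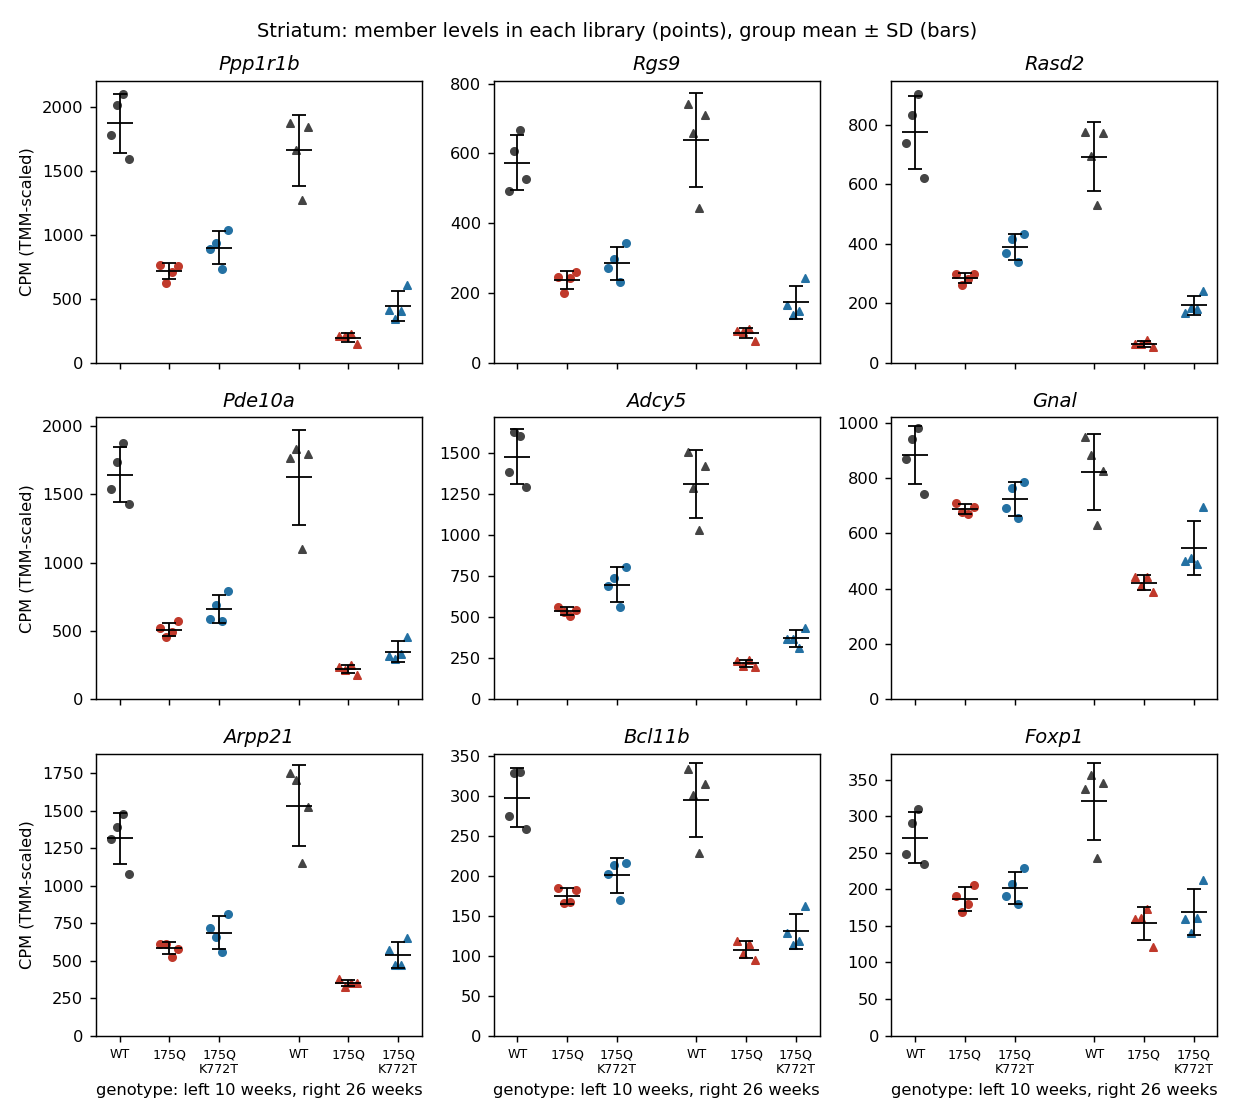
Level of each gene in the striatum in CPM on a linear axis from 0, with a point per library (circles 10 weeks, triangles 26 weeks) and the mean ± SD of each group of 4 as bars. The 175Q points lie below all WT points in every panel, and the 26-week 175Q points of Rasd2, at 52.7 to 75.9 CPM, lie nearest to 0 relative to WT.

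Ppp1r1b, the DARPP-32 gene, was at 1780.0, 2009.8, 2102 and 1588 CPM in the WT striata at 10 weeks and at 765, 627, 712 and 759 CPM in the 175Q striata. The 26-week WT values were 1873, 1662, 1269 and 1838 CPM and the 175Q values 209, 214, 225 and 145 CPM. The groups were far apart at both ages, and the 175Q values at 26 weeks were also below all those at 10 weeks. The log2 fold change was -1.39 ± 0.11 (2.62-fold lower, adjusted p = 1.12e-06) and then -3.07 ± 0.18 (8.39-fold lower, adjusted p = 7.42e-08).

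Rasd2, the gene for Rhes, fell the most of the 9 at 26 weeks. Its WT values were 741, 833, 905 and 620.4 CPM at 10 weeks and 776, 694, 529.6 and 774 CPM at 26 weeks. The 175Q values were 299.9, 263, 282 and 298 CPM and then 64.7, 64.5, 75.9 and 52.7 CPM. The 26-week 175Q striata were 10.7-fold below WT, with log2 fold changes of -1.44 ± 0.11 at 10 weeks (adjusted p = 7.17e-07) and -3.42 ± 0.15 at 26 weeks (adjusted p = 1.47e-08).

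Rgs9, which shortens receptor signalling, was at 492, 608, 667 and 527 CPM in WT and 246, 201, 243 and 261 CPM in 175Q striata at 10 weeks. At 26 weeks it was at 742, 657, 445 and 709 CPM in WT and 91.9, 89.2, 98.1 and 63.3 CPM in 175Q. The difference widened, with log2 fold changes of -1.28 ± 0.12 (adjusted p = 3.36e-06) and -2.90 ± 0.20 (adjusted p = 2.81e-07).

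Pde10a, the phosphodiesterase, had the largest log2 fold change of the 9 at 10 weeks. It was at 1539, 1735, 1875 and 1427 CPM in WT and 523, 455, 491 and 569 CPM in 175Q at that age. The 26-week WT values were 1764, 1834, 1102 and 1798 CPM, with replicate 3 well below the others, and the 175Q values 238, 216, 252 and 179 CPM. The log2 fold change was -1.69 ± 0.11 (adjusted p = 1.76e-07) and -2.86 ± 0.16 (adjusted p = 6.98e-08).

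Adcy5, the cyclase on which dopamine receptors converge, was at 1382, 1631, 1606 and 1291 CPM in WT and 564, 531, 505 and 541 CPM in 175Q at 10 weeks. At 26 weeks the values were 1509, 1285, 1033 and 1424 CPM in WT and 232, 206, 238 and 197 CPM in 175Q. The enzyme that makes cyclic AMP and the enzyme that degrades it were thus both lower, Adcy5 by log2 fold changes of -1.46 ± 0.10 (adjusted p = 4.35e-07) and -2.59 ± 0.13 (adjusted p = 2.79e-08).

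Gnal, which couples receptors to that cyclase, fell the least. Its WT values were 867, 942, 982 and 741 CPM at 10 weeks, and its 175Q values 708, 677, 669.5 and 695 CPM. The highest 175Q library was only a little below the lowest WT library at that age. At 26 weeks the values were 949, 883, 629 and 825 CPM in WT and 442, 411, 442 and 388 CPM in 175Q. The log2 fold changes were -0.36 ± 0.08 (adjusted p = 0.0049) and -0.96 ± 0.13 (adjusted p = 6.69e-05).

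Arpp21, the cyclic AMP-regulated phosphoprotein, was at 1312, 1389, 1478 and 1081 CPM in WT and 611, 611, 526 and 581 CPM in 175Q at 10 weeks. At 26 weeks it was at 1754, 1705, 1154 and 1525 CPM in WT and 376, 326, 354 and 351 CPM in 175Q. Its log2 fold changes lay between those of the transcription factors and those of the other signalling genes except Gnal, -1.18 ± 0.12 (adjusted p = 6.75e-06) and -2.12 ± 0.14 (adjusted p = 1.85e-07).

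The transcription factors Bcl11b and Foxp1 fell less than the signalling genes other than Gnal. Bcl11b was at 275, 329, 330.2 and 258 CPM in WT and 185, 166, 167 and 182 CPM in 175Q at 10 weeks, and at 334, 301, 228 and 315 CPM and 118, 102, 115 and 94.8 CPM at 26 weeks. Foxp1 was at 248, 290.3, 310.1 and 234 CPM in WT and 190.4, 168, 180.5 and 206 CPM in 175Q at 10 weeks, and at 337, 356, 242 and 346 CPM and 159.5, 161, 173 and 121 CPM at 26 weeks. For both genes the 26-week 175Q striata held less of the WT level than the 10-week ones. Bcl11b had log2 fold changes of -0.77 ± 0.09 (adjusted p = 3.88e-05) and -1.45 ± 0.13 (adjusted p = 2.25e-06). Foxp1 had log2 fold changes of -0.54 ± 0.10 (adjusted p = 0.000797) and -1.05 ± 0.13 (adjusted p = 3.93e-05).

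Whether the 175Q difference itself changed between the ages was tested in a fit over the 24 striatum libraries. It was larger at 26 weeks for 8 of the 9 genes, beside 8.09% of all 22038 genes whose difference changed in either direction. Rasd2 changed most, with a change of -1.99 ± 0.19 (adjusted p = 7.92e-07) on the log2 scale, followed by Ppp1r1b with -1.68 ± 0.21 (adjusted p = 2.83e-05) and Rgs9 with -1.62 ± 0.23 (adjusted p = 8.92e-05). Pde10a and Adcy5, which had led at 10 weeks, changed by -1.17 and -1.13, Arpp21 by -0.95, Bcl11b by -0.69 and Gnal by -0.60. Foxp1 had a change of -0.51 ± 0.17 (adjusted p = 0.0737) that did not pass. It passed with DESeq2 (adjusted p = 0.0421) and with no filter on low counts (adjusted p = 1.83e-05), where the change was no larger, at -0.48. It also passed without 26-week WT replicate 3 (adjusted p = 0.0232), 26-week 175Q replicate 3 or 10-week WT replicate 3. The Gnal call was lost without 10-week WT replicate 4, 26-week WT replicate 1 or 26-week 175Q replicate 2 (adjusted p from 0.0528 to 0.0546). By the size of their fall Pde10a, Adcy5 and Rasd2 led at 10 weeks and Rasd2, Ppp1r1b and Rgs9 at 26 weeks. The standard errors of Adcy5, Rasd2 and Ppp1r1b overlapped at 10 weeks, and so did those of Rgs9 and Pde10a at 26 weeks. The genes share libraries that moved together, so such overlap does not compare them. No test between genes was run, and the order among these genes is not settled. Each age was 1 batch, and the mutant column names gave a shorter repeat at 26 weeks only, so that age, batch and a difference in repeat length cannot be told apart.

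The 175QK772T mice address whether the same expansion acts differently when the nuclear localization signal is altered. In their striata all 9 genes were again lower than in WT at both ages, beside 19% of all genes called at 10 weeks and 23.4% at 26 weeks. For 8 of the 9 every 175QK772T library lay below every WT library at each age, and Gnal was the exception at both. The Gnal call at 10 weeks was lost without WT replicate 1, 2 or 3 or without 175QK772T replicate 1 or 3, with adjusted p from 0.0647 to 0.113. The log2 fold change against WT ranged from -0.29 for Gnal to -1.30 for Pde10a at 10 weeks, and from -0.59 for Gnal to -2.22 for Pde10a at 26 weeks. Set beside the 175Q difference on the log2 scale, it came to 68.7% to 80.1% of it at 10 weeks, with a median of 75.3%, and to 53.7% to 88.3% at 26 weeks, with a median of 70.5%. These percentages share the WT libraries and are given as a description.

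Compared with 175Q directly, none of the 9 genes was called in 175QK772T at 10 weeks, where 0.6% of all genes were. All 9 log2 differences were positive, from 0.07 for Gnal to 0.45 for Rasd2 (adjusted p = 0.0889). Only Pde10a and Rasd2 had groups that did not overlap. Pde10a was at 589, 688, 576 and 792 CPM in the 175QK772T striata and Rasd2 at 371, 417, 339 and 433 CPM. This count depended on the fit: DESeq2 called 4 of the 9, Rasd2, Pde10a, Adcy5 and Ppp1r1b, and edgeR with no filter on low counts called 7. Without 175QK772T replicate 3 Adcy5 was called, at 0.48 (adjusted p = 0.0276), and without WT replicate 4 Rasd2 was, at 0.47 (adjusted p = 0.0232). At an unadjusted p below 0.05, 2694 of the 20998 genes differed.

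At 26 weeks 6 of the 9 genes were higher in 175QK772T than in 175Q, beside 13.6% of all genes called in either direction. Rasd2 differed most, at 169, 184, 181 and 242 CPM, which is 2.999-fold above 175Q and still 3.58-fold below WT. Its log2 difference was 1.58 ± 0.14 (adjusted p = 5.85e-05). Ppp1r1b was at 415, 340.1, 408 and 609 CPM and Rgs9 at 165, 137, 149 and 243 CPM, with log2 differences of 1.15 ± 0.17 (adjusted p = 0.00113) and 1.01 ± 0.19 (adjusted p = 0.00452).

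Adcy5 at 365, 366, 315 and 435 CPM, Arpp21 at 571, 471, 468 and 650.1 CPM and Pde10a at 315, 292, 330.4 and 459 CPM were also above every 175Q library. Their log2 differences were 0.76 (adjusted p = 0.00223), 0.62 (adjusted p = 0.0101) and 0.64 (adjusted p = 0.0172). Gnal, at 498, 512, 488 and 694 CPM, lay above every 175Q library but did not pass, with 0.38 (adjusted p = 0.0697). Gnal passed with DESeq2 (adjusted p = 0.0233) and without WT replicate 1 or 3 or 175QK772T replicate 3. Pde10a did not pass without 175Q replicate 2 (adjusted p = 0.0629) or 4 (adjusted p = 0.0542). The transcription factors overlapped the 175Q group. Bcl11b was at 129, 114, 118 and 162 CPM, with a difference of 0.28 (adjusted p = 0.164), and Foxp1 at 159.7, 139.8, 160.4 and 213 CPM, with 0.12 (adjusted p = 0.57). Whether this difference between the mutant genotypes changed with age was tested as well, and only Rasd2 passed, with 1.13 ± 0.19 (adjusted p = 0.00357), beside 1.07% of all genes. The Ppp1r1b value was 0.80 ± 0.21 (adjusted p = 0.0774) and passed with DESeq2 (adjusted p = 0.0119).

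**Figure D3:**
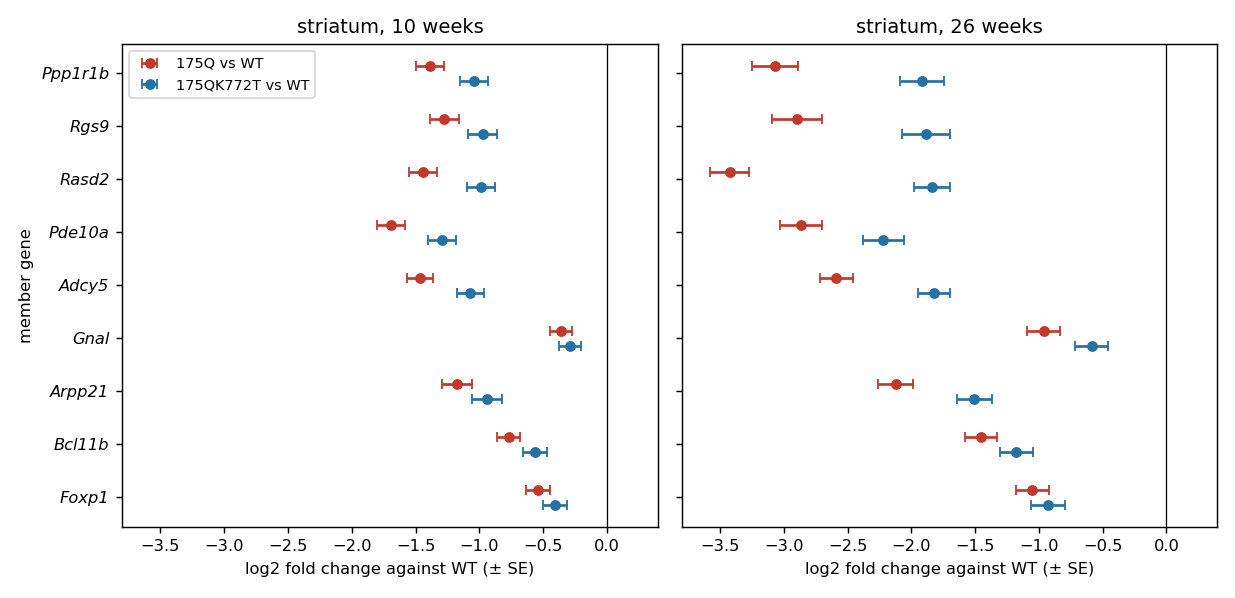
Log2 fold change against WT in the striatum (x axis, ± SE) of each gene, for 175Q (red) and 175QK772T (blue), at 10 weeks (left) and 26 weeks (right). All 36 points lie below 0, the 175QK772T points lie nearer to 0 than the 175Q points for every gene, and the gap is widest for Rasd2 at 26 weeks, -3.42 against -1.84.

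Libraries within a group moved together across the 9 genes. At 10 weeks 175QK772T replicate 3 was the lowest and replicate 4 the highest of its group for all 9, and WT replicate 4 was the lowest WT library for 8. At 26 weeks WT replicate 3 was the lowest WT library and 175QK772T replicate 4 the highest 175QK772T library for all 9 genes, and Slc17a7 was at 753 CPM and 26.6 CPM in these, the highest and the lowest of the 12 striata at 26 weeks. Without WT replicate 3 all 9 genes were still called in 175Q and in 175QK772T against WT, in 175Q with Rasd2 at -3.53 (adjusted p = 2.17e-08) and Pde10a at -2.99 (adjusted p = 6.38e-08). Without 175QK772T replicate 4, Rasd2 differed from 175Q by 1.48 (adjusted p = 8.92e-05) and Ppp1r1b by 0.997 (adjusted p = 0.0017). The summed level of 10 cortical excitatory markers in the striata at 10 weeks was 201 to 382 CPM in WT, 115 to 191 CPM in 175Q and 145 to 496 CPM in 175QK772T, and 5 of the 10 were called lower in 175Q. At 26 weeks the sum was 246 to 1168, 214 to 530.1 and 133 to 880.2 CPM, and 1 of the 10 was called. None of the 10 markers was at 0 in any group mean, and their part in the differences of the 9 genes was not tested. Mitochondrial genes took 4.89% to 5.50% of the counts in the 175Q striata at 26 weeks, below the 6.17% to 7.96% of the WT and the 5.65% to 6.66% of the 175QK772T striata. At 10 weeks the groups overlapped, at 5.94% to 6.17%, 5.88% to 6.98% and 5.79% to 6.41%. The part of this share in the differences was not tested.

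Over the 24 striatum libraries the 36 pairs of the 9 genes correlated with a median Pearson r of 0.975 (0.904 to 0.997) on log2 CPM centred within each age. With the mean of each genotype and age removed, so that only differences between replicate mice remain, the median was 0.896 (0.697 to 0.974). These values are descriptions over libraries that share dissection and genotype. The genes outside the 9 whose striatal pattern was most like their mean, of 15446 ranked, were Pde1b (r = 0.999), Drd2 (0.994), Penk (0.994), Adora2a (0.994) and Drd1 (0.993). Pde1b is a calcium-dependent phosphodiesterase, Drd1 and Drd2 are dopamine receptors, Adora2a is an adenosine receptor and Penk is the enkephalin precursor. Over all 120 libraries, of 15247 genes ranked, Pde7b (0.962), Bcr (0.961), Arhgdib (0.961), Gng7 (0.961) and Cyld (0.957) held ranks 4 to 8. The top-ranked gene, also outside the 9, is not named here, and Rgs9 and Adcy5 came next after it.

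The wider signalling pathway was described by a list of 26 matched receptors, G protein subunits, kinases, phosphatases and phosphodiesterases that work with the 9 genes. In 175Q striata 20 of the 26 were lower and 2 higher at 10 weeks, with a median log2 fold change of -0.63, and 21 were lower and 1 higher at 26 weeks, with a median of -1.47. These counts, and those of the lists that follow, stand beside 32.7% and 45.4% of all genes called in either direction. Receptor genes were among them. Adora2a had log2 fold changes of -2.04 (adjusted p = 2.49e-08) and -3.93 (adjusted p = 1.19e-07), Drd2 of -1.60 and -3.52, Drd1 of -1.38 and -3.25, and the muscarinic receptor gene Chrm4 of -1.65 and -2.43. Ppp1ca, a catalytic subunit that DARPP-32 inhibits, had -0.94 and -1.38. Ppp3ca, the calcineurin subunit that dephosphorylates DARPP-32, had -1.07 and -1.89. In 175QK772T against 175Q, 2 of the 26 were higher at 10 weeks, Adora2a and Chrm4, and 17 at 26 weeks, beside 0.6% and 13.6% of all genes.

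Markers of the direct and indirect pathways share 5 receptor genes with that list. Of 12 markers, 7 were lower and 1 higher in 175Q at 10 weeks, and 9 lower and 1 higher at 26 weeks, beside 32.7% and 45.4% of all genes. Penk, of the indirect pathway, had log2 fold changes of -2.07 and -3.78.

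Relatives of the 9 genes in the same families had smaller median changes. Of 18 tested, 2 of which are also counted among the transcription factors, 10 were lower and 2 higher in 175Q at 10 weeks, and 10 lower and 1 higher at 26 weeks, with medians of -0.27 and -0.43, beside 32.7% and 45.4% of all genes called. Ppp1r1a, the inhibitor-1 gene closest in function to Ppp1r1b, fell most, with log2 fold changes of -1.17 (adjusted p = 6.46e-08) and -1.84 (adjusted p = 2.83e-08), and was higher in 175QK772T than in 175Q at both ages, by 0.38 (adjusted p = 0.0255) and 0.77 (adjusted p = 0.000329). Rgs11, of the same subfamily as Rgs9, had log2 fold changes of -0.60 and -0.95, and Adcy9 of -0.49 and -0.56. R3hdm1, a relative of Arpp21, had -0.34 and -0.65.

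Of 16 other transcription factors of striatal neurons, 5 were lower and 2 higher in 175Q at 10 weeks, and 9 lower and 1 higher at 26 weeks, with medians of -0.09 and -0.51. That is 7 and 10 of 16 called, beside 32.7% and 45.4% of all genes. The retinoid receptor genes Rxrg and Rarb fell further than Bcl11b and Foxp1 in log2 fold change at 26 weeks, Rxrg with -1.37 and -2.45 and Rarb with -0.78 and -2.07. Foxo1 had -0.75 and -1.52, Meis2 -0.42 and -1.04, and Dlx6 -0.45 and -0.75.

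Genes for making GABA and loading it into vesicles, which mark GABA neurons in general, were read beside the 9. At 10 weeks none of Gad1, Gad2 and Slc32a1 was called in 175Q, with log2 fold changes of -0.17 (adjusted p = 0.0966), 0.20 (adjusted p = 0.131) and 0.18 (adjusted p = 0.0942). At 26 weeks Gad1 was called lower, at -0.61 (adjusted p = 0.0016), and the others were not, with Gad2 at -0.22 (adjusted p = 0.271) and Slc32a1 at -0.01 (adjusted p = 0.959). The summed level of the 9 genes at 26 weeks was 6633 to 10038 CPM in WT and 1593 to 1973 CPM in 175Q. Of 8 general neuronal genes, 3 were lower and 2 higher at 10 weeks and 5 were lower at 26 weeks, beside 32.7% and 45.4% of all genes. The medians of the 8 were -0.10 and -0.34. Rbfox3 at -0.45 and -0.74 and Snap25 at -0.29 and -0.80 were more negative than these medians. The summed level of the 8 was 5298 to 5655 CPM in WT and 4994 to 5417 CPM in 175Q at 10 weeks. At 26 weeks it was 5863 to 7348 CPM and 4250 to 5471 CPM.

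**Figure D4:**
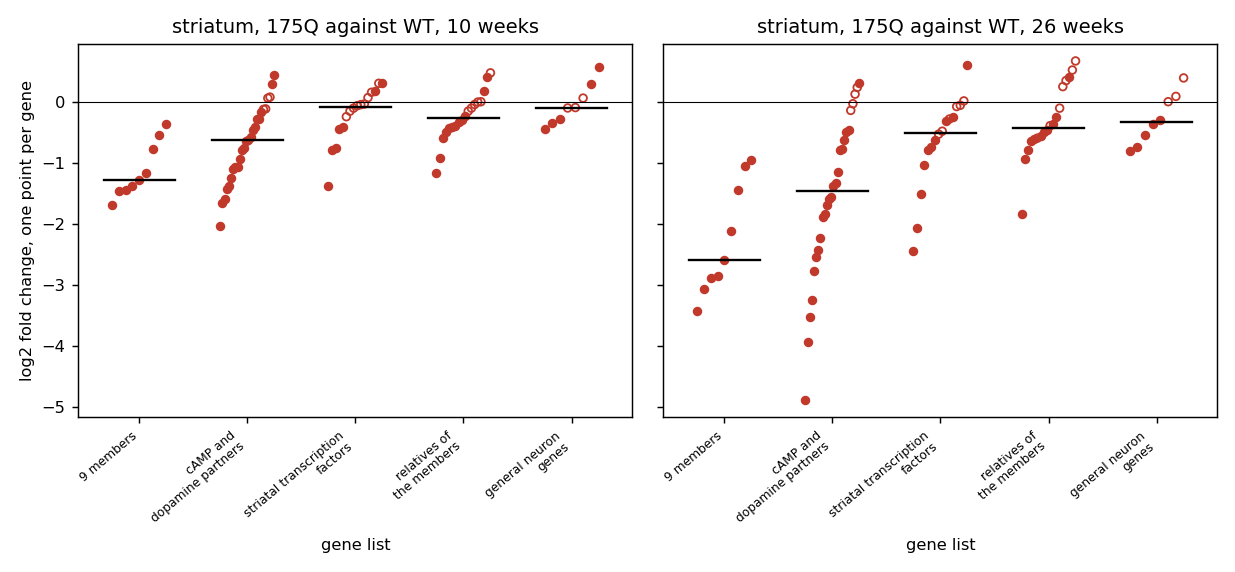
Log2 fold change in the striatum of 175Q against WT (y axis) of every gene of 5 lists, at 10 weeks (left) and 26 weeks (right); filled points passed the test, open points did not, and the bar is the list's median. The 9 genes have medians of -1.28 and -2.59, their relatives -0.27 and -0.43.

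Markers of other striatal cells were read in 175Q beside the 32.7% and 45.4% of all genes called at 10 and 26 weeks. Interneuron markers were lower in 8 of 9 cases at 10 weeks and 7 of 9 at 26 weeks, among them the acetylcholine genes Chat at -1.61 and -1.97 and Slc5a7 at -1.37 and -2.06. Astrocyte markers were lower in 7 of 10 at both ages, oligodendrocyte markers in 6 of 8 and then 1 of 8, microglial markers in 6 of 8 and then 8 of 8, and endothelial markers in 5 of 6 at both ages with 1 higher at 26 weeks. The median log2 fold changes of these 4 glial and vascular lists lay between -0.22 and -0.61. Choroid plexus and ependymal markers were lower in 2 of 8 and 3 of 8, and their sum ranged over 67.99 to 4639 CPM within the 175Q striata at 10 weeks. The part of these cell types in the differences of the 9 genes was not tested.

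Outside the striatum the 9 genes were called in 23 of 72 pairs of gene and set in 175Q against WT, in 14 of 72 in 175QK772T against WT and in 7 of 72 between the mutant genotypes. The share of all genes called in the 8 sets of region and age ranged over 2.93% to 40.8%, 0.0331% to 25.9% and 0.0332% to 15.7% for these comparisons. The 23 were 20 lower and 3 higher. Ppp1r1b and Rasd2 accounted for the largest differences.

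**Figure D5:**
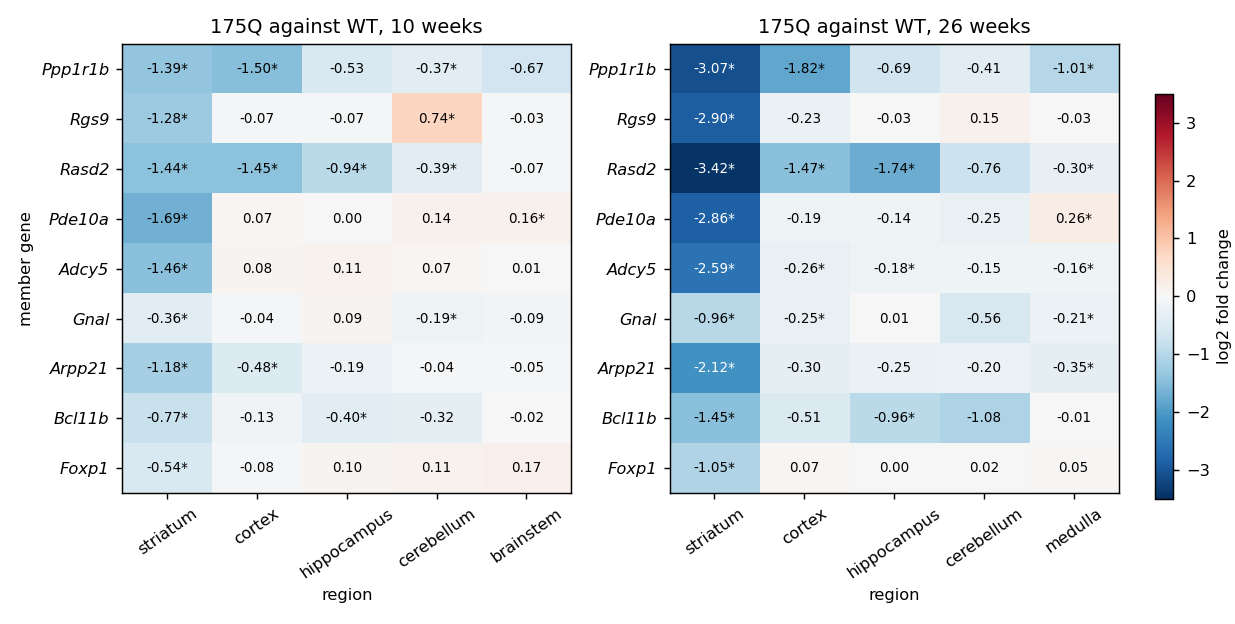
Log2 fold change of 175Q against WT for each gene (rows) in each region (columns), at 10 weeks (left) and 26 weeks (right); colour gives the value, printed in each cell, and an asterisk marks an adjusted p below 0.05. The striatum column is negative and marked throughout, and outside it the most negative marked cells are Ppp1r1b in cortex, -1.50 and -1.82, and Rasd2 in hippocampus at 26 weeks, -1.74.

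In the cortex 3 of the 9 genes were lower in 175Q at 10 weeks, beside 38.2% of all genes, and 4 at 26 weeks, beside 31.6%. Ppp1r1b was at 85.3, 77.3, 75.3 and 94.9 CPM in WT and 24.7, 28.6, 36.6 and 28.1 CPM in 175Q at 10 weeks, and at 70.9, 65.8, 73.3 and 71.9 and 22.5, 20.96, 17.5 and 18.6 CPM at 26 weeks. Rasd2 was at 77.6, 65.5, 68.1 and 75.02 CPM in WT and 21.7, 29.2, 28.2 and 25.6 CPM in 175Q at 10 weeks, and at 44.7, 57.5, 69.4 and 66.7 and 18.3, 22, 22.9 and 23.1 CPM at 26 weeks. Neither gene's groups overlapped at either age. The log2 fold changes of Ppp1r1b were -1.50 ± 0.09 (adjusted p = 8.29e-10) and -1.82 ± 0.09 (adjusted p = 2.61e-07). Those of Rasd2 were -1.45 ± 0.09 (adjusted p = 1.63e-09) and -1.47 ± 0.13 (adjusted p = 2.07e-05).

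Arpp21, which with Foxp1 had the smallest gap between striatum and cortex in WT, was the other gene called in cortex at 10 weeks, at 477, 437, 424 and 465 CPM in WT and 338, 331, 301 and 319.8 CPM in 175Q, a log2 fold change of -0.48 (adjusted p = 1.36e-07). At 26 weeks its WT values were 139, 431, 377 and 416 CPM, with replicate 1 below every 175Q library, and the difference of -0.30 (adjusted p = 0.381) did not pass. Without WT cortex replicate 1 it was -0.58 (adjusted p = 2.03e-08), and Bcl11b went from -0.51 (adjusted p = 0.087) to -0.74 (adjusted p = 2.13e-07). Foxp1 turned from 0.07 to -0.14 (adjusted p = 0.0322) and Rgs9 from -0.23 (adjusted p = 0.0505) to -0.25 (adjusted p = 0.0184). Adcy5 and Gnal, the other genes called at 26 weeks, had log2 fold changes of -0.26 (adjusted p = 0.003) and -0.25 (adjusted p = 0.0128). Without that library 8 of the 9 were lower, beside 44.8% of all genes. At 10 weeks Bcl11b was called without WT replicate 1 (adjusted p = 0.0308) and Foxp1 without WT replicate 3 (adjusted p = 0.0382).

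In 175QK772T against WT, 4 genes were lower and 1 higher in cortex at 10 weeks, beside 25.9% of all genes, and 2 were lower at 26 weeks, beside 8.83%. The genes lower at 10 weeks were Ppp1r1b, Rasd2, Arpp21 (-0.53) and Bcl11b (-0.20). Ppp1r1b had -1.35 and -1.47 and Rasd2 -1.16 and -0.90. The gene that was higher was Adcy5 at 10 weeks, by 0.14 (adjusted p = 0.0166). The Bcl11b call was lost without WT replicate 2 or 3, or 175Q replicate 3, or 175QK772T replicate 3 or 4 (adjusted p from 0.0509 to 0.219) and the Adcy5 call without WT replicate 1, or 175QK772T replicate 1 (adjusted p from 0.0536 to 0.0899), while Foxp1 was called lower without WT replicate 3 (adjusted p = 0.0167). At 26 weeks, without WT replicate 1, Arpp21 went from -0.11 to -0.39 (adjusted p = 9.9e-06), Bcl11b from -0.25 to -0.49 (adjusted p = 8.9e-05) and Rgs9 from -0.22 to -0.24 (adjusted p = 0.0446). The genes lower then numbered 5, beside 22.9% of all genes. Between the mutant genotypes none was called at 10 weeks, beside 1.05%, and 2 were higher in 175QK772T at 26 weeks, beside 3.46%, Rasd2 by 0.57 (adjusted p = 0.0407) and Adcy5 by 0.22 (adjusted p = 0.0358). Without WT replicate 1 the count was 5, beside 23.4%, with Ppp1r1b at 0.35 (adjusted p = 0.00294), Arpp21 at 0.20 (adjusted p = 0.00362) and Bcl11b at 0.26 (adjusted p = 0.012). With all libraries both calls were near the threshold. That of Rasd2 was lost without WT replicate 2, or 175Q replicate 1, 2, 3 or 4, or 175QK772T replicate 1, 2, 3 or 4 (adjusted p from 0.0584 to 0.135). That of Adcy5 was lost without WT replicate 2 or 4, or 175Q replicate 1, 2, 3 or 4, or 175QK772T replicate 1, 2, 3 or 4 (adjusted p from 0.0506 to 0.126), with no sex term (adjusted p = 0.0675) and with no filter on low counts (adjusted p = 0.113).

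In the hippocampus 2 genes were lower in 175Q at 10 weeks, beside 19.6% of all genes, and 3 at 26 weeks, beside 40.8%. Rasd2 was at 61.4, 54.7, 56.2 and 52.3 CPM in WT and 26.1, 31.3, 26.97 and 32.8 CPM in 175Q at 10 weeks, and at 61.4, 54.7, 70.8 and 53.8 and 20.1, 15.4, 19.8 and 16.2 CPM at 26 weeks. Bcl11b, which had the smallest gap between striatum and hippocampus in WT, was at 151, 149.6, 163 and 147 CPM in WT and 109.7, 104, 113 and 139 CPM in 175Q at 10 weeks, and at 132, 125, 137 and 122 and 72.2, 65.5, 65.9 and 62.6 CPM at 26 weeks. For both genes the WT and 175Q groups did not overlap. The log2 fold changes of Rasd2 were -0.94 (adjusted p = 1.59e-05) and -1.74 (adjusted p = 1.01e-08), and those of Bcl11b -0.40 (adjusted p = 0.00391) and -0.96 (adjusted p = 1.06e-08). Adcy5 was at -0.18 (adjusted p = 0.0395) at 26 weeks, a call lost without WT replicate 2, 3 or 4, or 175Q replicate 2 or 3, or 175QK772T replicate 1 or 2 (adjusted p from 0.0501 to 0.131), with a value of -0.11 (adjusted p = 0.107) without 175Q replicate 2. Ppp1r1b in 175Q hippocampus at 26 weeks was at 25.1, 73.2, 22.9 and 20.7 CPM, with replicate 2 above every WT library, and its difference of -0.69 (adjusted p = 0.0594) did not pass. Without that library it was -1.20 (adjusted p = 8.56e-07), and without WT replicate 4 -0.83 (adjusted p = 0.0393). At 10 weeks Ppp1r1b was at -0.53 (adjusted p = 0.117), and at -0.84 (adjusted p = 0.00327) without 175Q replicate 2. Arpp21 was called lower at 10 weeks without 175Q replicate 3, or 175QK772T replicate 1 (adjusted p from 0.0423 to 0.0474) and at 26 weeks without 175Q replicate 3 (adjusted p = 0.0429), and Pde10a at 26 weeks without WT replicate 1, or 175Q replicate 1 (adjusted p from 0.0367 to 0.0493).

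In 175QK772T against WT, 2 genes were lower in hippocampus at 10 weeks, Rasd2 and Arpp21, beside 10.8%, and 3 at 26 weeks, Rasd2, Bcl11b and Ppp1r1b, beside 19%. The Arpp21 call at 10 weeks, at -0.29 (adjusted p = 0.025), was lost without WT replicate 1, 3 or 4, or 175QK772T replicate 2, 3 or 4 (adjusted p from 0.0569 to 0.0837). The Ppp1r1b call at 26 weeks, at -0.88 (adjusted p = 0.0366), was lost with DESeq2 (adjusted p = 0.0559), with no sex term (adjusted p = 0.0658) and without WT replicate 1, 2 or 3, or 175QK772T replicate 1, 2, 3 or 4 (adjusted p from 0.0612 to 0.133). Adcy5 was called higher at 10 weeks without 175QK772T replicate 3 (adjusted p = 0.0461) and at 26 weeks without 175Q replicate 2 (adjusted p = 0.0303), and Gnal at 26 weeks without WT replicate 4, or 175Q replicate 2 or 3 (adjusted p from 0.00812 to 0.039). Between the mutant genotypes none was called at 10 weeks, beside 0.0332%. At 26 weeks 3 were higher in 175QK772T, beside 15.7%, with Bcl11b at 90.9, 90.1, 94.6 and 88.7 CPM and Rasd2 at 29.5, 26.6, 28.5 and 26.8 CPM. The log2 differences were 0.63 (adjusted p = 0.00071) for Rasd2, 0.45 (adjusted p = 0.000156) for Bcl11b and 0.33 (adjusted p = 0.00386) for Adcy5, and Gnal was called too without 175Q replicate 3 (adjusted p = 0.0315). Bcl11b was therefore called higher in 175QK772T than in 175Q in the hippocampus and not in the striatum at this age, and the difference between these regions was not tested.

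In the cerebellum, the region best known to be affected in this disease, 3 genes were lower and 1 higher in 175Q at 10 weeks, beside 11.4% of all genes. Ppp1r1b was at 172, 187, 161 and 176 CPM in WT and 145, 128, 131 and 136 CPM in 175Q, a log2 fold change of -0.37 (adjusted p = 7.24e-05). Rasd2 and Gnal were lower, at -0.39 (adjusted p = 0.0109) and -0.19 (adjusted p = 0.00316). Rgs9 went the other way from a low level, at 4.91, 3.83, 4.46 and 4.23 CPM in WT, 7.16, 6.99, 6.60 and 8.34 CPM in 175Q and 7.52, 7.60, 7.45 and 6.68 CPM in 175QK772T. Its log2 fold changes were 0.74 (adjusted p = 0.0001) in 175Q and 0.72 (adjusted p = 0.000476) in 175QK772T, where Ppp1r1b was the other gene called, lower, at -0.19 (adjusted p = 0.0288), beside 4.04% of all genes. None was called between the mutant genotypes, beside 1.19%. The Ppp1r1b call in 175QK772T was lost without WT replicate 1, 2 or 4, or 175QK772T replicate 1, 2, 3 or 4 (adjusted p from 0.059 to 0.0817). Adcy5 was called higher there without WT replicate 1 (adjusted p = 0.0398) and Gnal lower without 175QK772T replicate 3 (adjusted p = 0.0495), and Ppp1r1b differed between the mutant genotypes without 175Q replicate 1 (adjusted p = 0.00968).

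At 26 weeks none of the 9 was called in cerebellum in any of the 3 contrasts, beside 3.01%, 0.298% and 0.0992% of all genes for 175Q and 175QK772T against WT and for 175QK772T against 175Q. These counts became 5, 2 and 3 without the 3 libraries that stood apart, beside 13.7%, 4.77% and 10.8% of all genes. Rgs9 was at 24.8, 4.71, 5.10 and 6.54 CPM in WT, with replicate 1 far above the rest, and at 12.99, 12.4, 12.2 and 6.45 CPM in 175Q. Without the 3 libraries Rgs9 was higher in 175Q by 1.21 (adjusted p = 0.000109) and in 175QK772T by 0.81 (adjusted p = 0.00508), and Ppp1r1b, Rasd2 and Gnal were lower in 175Q, at -0.76 (adjusted p = 0.00037), -0.72 (adjusted p = 0.000459) and -0.35 (adjusted p = 0.00218). Foxp1 was then higher in 175Q, by 0.30 (adjusted p = 0.00866), and Rasd2 lower in 175QK772T, at -0.38 (adjusted p = 0.0449). Against 175Q, 175QK772T was higher for Ppp1r1b by 0.60 (adjusted p = 0.00606), Rasd2 by 0.35 (adjusted p = 0.0413) and Adcy5 by 0.27 (adjusted p = 0.0314). Leaving them out was chosen after the values had been seen. Without 175Q replicate 4 alone, Rasd2 was called in 175Q, at -0.90 (adjusted p = 0.0312).

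In the brainstem at 10 weeks Pde10a alone was called in 175Q, higher by 0.16 (adjusted p = 0.0445), beside 2.93% of all genes. That call was lost with no sex term (adjusted p = 0.0701) and without WT replicate 1, 3 or 4, or 175Q replicate 1, 2, 3 or 4, or 175QK772T replicate 1, 3 or 4 (adjusted p from 0.0607 to 0.15), while Ppp1r1b was called lower without WT replicate 2 (adjusted p = 0.0452). None was called in 175QK772T against WT, beside 0.0331%, or against 175Q, beside 0.0568%. In the medulla at 26 weeks 5 genes were lower and 1 higher in 175Q, beside 18.5%. Ppp1r1b was at 49.7, 63.98, 39.5 and 53.6 CPM in WT and 36.5, 20.9, 25.1 and 20.04 CPM in 175Q, a log2 fold change of -1.01 (adjusted p = 0.00924). Arpp21 was lower, at -0.35, Rasd2 at -0.30, Gnal at -0.21 and Adcy5 at -0.16 (adjusted p = 0.0299). The Adcy5 call was lost without WT replicate 1, 2 or 3, or 175Q replicate 1, 2 or 4 (adjusted p from 0.0534 to 0.0946). Pde10a was higher, at 63.6, 69.4, 64.02 and 64.4 CPM in WT and 84.6, 77.5, 73.2 and 77.01 CPM in 175Q, by 0.26 (adjusted p = 0.00247). In 175QK772T none was called against WT, beside 2.08%, with Ppp1r1b at -0.54 (adjusted p = 0.285). Without 175QK772T replicate 2, Ppp1r1b was at -0.94 (adjusted p = 0.00211) and Arpp21 at -0.25 (adjusted p = 0.0339), and both were called. Against 175Q Rasd2 was higher by 0.37 (adjusted p = 0.00612) and Pde10a lower, at -0.21 (adjusted p = 0.0197), beside 9.46%. The Pde10a call was lost with no sex term (adjusted p = 0.0571) and without 175Q replicate 1 or 4, or 175QK772T replicate 1 (adjusted p from 0.05003 to 0.0737).

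The 175Q difference in the striatum was tested against that in each other region, with the mouse as a block. At 10 weeks it was lower in striatum for 7 of the 9 genes against cortex, 8 against hippocampus, 7 against cerebellum and 9 against brainstem. The share of all genes with a lower difference in striatum was 8.43%, 6.84%, 9.45% and 10.1% for these regions in turn. At 26 weeks it was lower for 8 against cortex, 9 against hippocampus, 7 against cerebellum and 9 against medulla, beside 4.45%, 9.18%, 4.91% and 11.9% of all genes. The 2 genes not lower against cortex at 10 weeks were Rasd2, with 0.01 ± 0.16 (adjusted p = 0.979), and Ppp1r1b, with 0.10 ± 0.16 (adjusted p = 0.725). By 26 weeks both fell more in striatum than in cortex, Rasd2 with -1.98 ± 0.23 (adjusted p = 0.000315) and Ppp1r1b with -1.26 ± 0.20 (adjusted p = 0.0027). Against hippocampus at 10 weeks Ppp1r1b was not called, at -0.83 (adjusted p = 0.0652). It passed with no mouse block (adjusted p = 0.034) and with no filter on low counts (adjusted p = 0.0177). It also passed without the mouse of 175Q replicate 4 (adjusted p = 0.0486) or 175QK772T replicate 3 (adjusted p = 0.0372). Gnal was not called against cerebellum at 10 weeks, at -0.15 (adjusted p = 0.316), or at 26 weeks, at -0.38 (adjusted p = 0.204). Bcl11b was not called against cerebellum at 10 weeks, at -0.42 (adjusted p = 0.463), but was without the mouse of WT replicate 1, at -0.88 (adjusted p = 0.0361). Bcl11b was not called against cerebellum at 26 weeks, at -1.08 (adjusted p = 0.462). Without the mouse of WT replicate 1 it was called, at -2.11 (adjusted p = 0.00871). Against cortex at 26 weeks Bcl11b was at -1.01 (adjusted p = 0.0665). Without the mouse of WT replicate 3 it was called, at -1.26 (adjusted p = 0.015). The fits of striatum against each region share the striatum libraries.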

How the data were processed

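Poly(A) RNA libraries were sequenced paired-end. The deposited values are raw counts per gene made by the authors with featureCounts 1.6.2 of the Subread package, with Ensembl 97 annotation, a minimum mapping quality of 10 and reverse-strand counting of pairs, per the file headers of the 10-week table. The 26-week table carries no command line, and its counting settings are not given in the sources used here. The submitters' processing notes also name HISAT2 2.1.0, Trimmomatic 0.33, bcl2fastq 2.20.0 and GRCm38.

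Separate fits were made for every region at each age (10 fits of 12 libraries) with edgeR 4.0.16 (TMM, filterByExpr, quasi-likelihood, genotype and sex, R 4.3.3 with limma 3.58.1). P-values were adjusted by the Benjamini-Hochberg method over all genes tested, and a standard error is the log2 fold change divided by the square root of F. Interaction fits used the 24 striatum libraries for age and, for regions, the striatum and another region with the mouse as a block. The scripts were tested on simulated data. CPM were TMM-scaled, and FPKM used the gene lengths in the deposited tables. Alternatives were DESeq2 1.42.0, RLE scaling, no filter on low counts, no sex term, a replicate block, no mouse block and each library or mouse left out; leaving out 3 cerebellum libraries was added after the data had been seen.

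The members and gene lists were chosen with earlier results of these data known. Named genes were the 9 members and Atxn1. Up to 4 genes of smallest p per list and age in the striatum of 175Q against WT were named. So were 5 genes per ranking among those most correlated with the members' mean (at least 1 CPM). Over all 120 libraries the top-ranked gene was left unnamed. Slc17a7, Mbp and other markers of libraries that stood apart were named after their values had been seen. An item of the lists is not reported here. Motifs were searched in RefSeq windows on both strands. The 26-week libraries held fewer counts, and the part of depth in the precision was not tested.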

Additional observations from a re-analysis of the deposited data

Results flagged for a closer look

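In 35 of the 270 groups of 4 libraries, 1 library lay far from the other 3 for its gene, the gap to the nearest passing Dixon's 95% critical value for 4 samples. Chance flags about 1 in 20 groups. Values are in CPM, with the nearest of the other libraries after each.

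In the striatum at 26 weeks, Foxp1 stood apart in WT replicate 3 at 242 CPM (nearest 337 CPM). Gnal did so in 175QK772T replicate 4 at 694 CPM (nearest 512 CPM). Pde10a did so in WT replicate 3 at 1102 CPM (nearest 1764 CPM). In the cortex at 26 weeks, Foxp1 stood apart in 175Q replicate 2 at 93.4 CPM (nearest 89.1 CPM). Ppp1r1b did so in 175QK772T replicate 1 at 28.8 CPM (nearest 24.7 CPM). In the hippocampus at 10 weeks, Gnal stood apart in 175QK772T replicate 3 at 179 CPM (nearest 167 CPM) and WT replicate 2 at 146 CPM (nearest 159 CPM). Ppp1r1b did so in 175Q replicate 2 at 54.1 CPM (nearest 30.2 CPM) and WT replicate 2 at 66.3 CPM (nearest 45.8 CPM). In the hippocampus at 26 weeks, Arpp21 stood apart in WT replicate 4 at 277 CPM (nearest 214 CPM). Gnal did so in 175QK772T replicate 1 at 166 CPM (nearest 171 CPM). Ppp1r1b did so in 175Q replicate 2 at 73.2 CPM (nearest 25.1 CPM).

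In the cerebellum at 10 weeks, Bcl11b stood apart in 175QK772T replicate 1 at 2.87 CPM (nearest 1.64 CPM) and WT replicate 1 at 3.44 CPM (nearest 1.55 CPM). Foxp1 did so in WT replicate 3 at 25.02 CPM (nearest 23.2 CPM). Rgs9 did so in 175QK772T replicate 4 at 6.68 CPM (nearest 7.45 CPM). In the cerebellum at 26 weeks, Adcy5 stood apart in WT replicate 1 at 93.3 CPM (nearest 51.7 CPM). Arpp21 did so in 175Q replicate 4 at 77.02 CPM (nearest 100.2 CPM) and WT replicate 1 at 152 CPM (nearest 99.3 CPM). Bcl11b did so in WT replicate 1 at 19.5 CPM (nearest 1.31 CPM). Foxp1 did so in 175QK772T replicate 2 at 19.5 CPM (nearest 27.5 CPM) and WT replicate 1 at 41.9 CPM (nearest 26.5 CPM). Gnal did so in 175Q replicate 4 at 92.8 CPM (nearest 139.6 CPM). Ppp1r1b did so in 175Q replicate 4 at 240.2 CPM (nearest 97.4 CPM). Rasd2 did so in WT replicate 1 at 42.6 CPM (nearest 24.02 CPM). Rgs9 did so in 175Q replicate 4 at 6.45 CPM (nearest 12.2 CPM), 175QK772T replicate 2 at 4.22 CPM (nearest 9.23 CPM) and WT replicate 1 at 24.8 CPM (nearest 6.54 CPM). In the brainstem at 10 weeks, Adcy5 stood apart in 175Q replicate 1 at 124 CPM (nearest 129.8 CPM). Foxp1 did so in 175Q replicate 1 at 24.02 CPM (nearest 28.04 CPM). Pde10a did so in WT replicate 2 at 68.8 CPM (nearest 61.2 CPM). Rasd2 did so in WT replicate 3 at 34.05 CPM (nearest 36.8 CPM). In the medulla at 26 weeks, Bcl11b stood apart in WT replicate 1 at 12.5 CPM (nearest 10.7 CPM). Pde10a did so in WT replicate 2 at 69.4 CPM (nearest 64.4 CPM). Ppp1r1b did so in 175QK772T replicate 2 at 57.5 CPM (nearest 28.9 CPM). At 26 weeks in the cerebellum, WT replicate 1, 175Q replicate 4 and 175QK772T replicate 2 are the libraries that recur.

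The 175Q difference from WT also differed between regions and between ages, by the interaction terms of the edgeR fits. Each value is the log2 fold change in striatum minus that in the other region, called at an adjusted p below 0.05, so that a negative value is a larger fall in striatum. For Ppp1r1b it was -0.76 against brainstem and -1.0 against cerebellum at 10 weeks, and -2.55 against cerebellum, -1.26 against cortex, -2.29 against hippocampus and -2.05 against medulla at 26 weeks. The Ppp1r1b brainstem call was lost without the mouse of 175Q replicate 1 (adjusted p = 0.0501). For Rgs9 it was -1.25 against brainstem, -1.99 against cerebellum, -1.22 against cortex and -1.22 against hippocampus at 10 weeks, and -3.32 against cerebellum, -2.68 against cortex, -2.89 against hippocampus and -2.87 against medulla at 26 weeks. For Rasd2 it was -1.37 against brainstem, -1.03 against cerebellum and -0.50 against hippocampus at 10 weeks, and -2.66 against cerebellum, -1.98 against cortex, -1.69 against hippocampus and -3.14 against medulla at 26 weeks. The Rasd2 hippocampus call at 10 weeks was lost without the mouse of 175Q replicate 2, 3 or 4 or WT replicate 2 or 3 (adjusted p from 0.057 to 0.108). For Pde10a it was -1.86 against brainstem, -1.83 against cerebellum, -1.81 against cortex and -1.70 against hippocampus at 10 weeks, and -2.63 against cerebellum, -2.72 against cortex, -2.73 against hippocampus and -3.13 against medulla at 26 weeks. For Adcy5 it was -1.48 against brainstem, -1.51 against cerebellum, -1.56 against cortex and -1.58 against hippocampus at 10 weeks, and -2.44 against cerebellum, -2.34 against cortex, -2.41 against hippocampus and -2.43 against medulla at 26 weeks. For Gnal it was -0.27 against brainstem, -0.32 against cortex and -0.45 against hippocampus at 10 weeks, and -0.72 against cortex, -0.98 against hippocampus and -0.75 against medulla at 26 weeks. At 10 weeks the Gnal brainstem call was lost without the mouse of any 175Q replicate or of WT replicate 1, 2 or 3 (adjusted p from 0.0762 to 0.126). The Gnal cortex call at 10 weeks was lost without that of WT replicate 1, 2 or 3, 175Q replicate 2, 3 or 4 or 175QK772T replicate 1 (adjusted p from 0.0524 to 0.119). For Arpp21 it was -1.13 against brainstem, -1.11 against cerebellum, -0.70 against cortex and -0.99 against hippocampus at 10 weeks, and -1.93 against cerebellum, -1.90 against cortex, -1.89 against hippocampus and -1.78 against medulla at 26 weeks. For Bcl11b it was -0.76 against brainstem, -0.65 against cortex and -0.38 against hippocampus at 10 weeks, and -0.51 against hippocampus and -1.45 against medulla at 26 weeks. The Bcl11b hippocampus call at 10 weeks was lost without the mouse of 175Q replicate 3 or 4 or WT replicate 2 or 3 (adjusted p from 0.0757 to 0.102). It was also lost with no mouse block (adjusted p = 0.0534). At 26 weeks the Bcl11b hippocampus call was lost without that of 175Q or WT replicate 1, 2 or 4 (adjusted p from 0.0561 to 0.106). For Foxp1 it was -0.72 against brainstem, -0.63 against cerebellum, -0.48 against cortex and -0.64 against hippocampus at 10 weeks, and -1.11 against cerebellum, -1.18 against cortex, -1.08 against hippocampus and -1.11 against medulla at 26 weeks. The Foxp1 cortex call was lost at 10 weeks without the mouse of 175Q replicate 2 or WT replicate 2 or 3 (adjusted p from 0.0502 to 0.0591). At 26 weeks it was lost without that of 175Q replicate 4 (adjusted p = 0.0501). Between the ages, the log2 fold change in the striatum of 175Q against WT at 26 weeks minus that at 10 weeks was called for Rasd2 in striatum (-1.99), Arpp21 in striatum (-0.95), Ppp1r1b in striatum (-1.68), Rgs9 in striatum (-1.62), Bcl11b in striatum (-0.69), Adcy5 in striatum (-1.13), Pde10a in striatum (-1.17) and Gnal in striatum (-0.60). The same difference for 175QK772T against 175Q was called for Rasd2 in striatum (1.13).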

How the results depend on the processing

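In the striatum all 9 genes stayed called in 175Q against WT at both ages under every alternative run, and in 175QK772T against WT 9 at 26 weeks and 8 to 9 at 10 weeks, where Gnal lost its call without WT replicate 1, 2 or 3 or 175QK772T replicate 1 or 3. Between the mutant genotypes at 10 weeks the count was 0, but 4 with DESeq2, 7 with no low-count filter and 0 to 1 with a library left out. Over all genes that contrast called 126, against 621 with DESeq2 and 1285 with no low-count filter, which also enlarges the set of genes tested. The Rasd2 difference was 0.45 with and without the filter, but its adjusted p without it was 2.27e-10, so the error estimate differed. Calls gained with no low-count filter show a dependence on the fit and are not added evidence. At 26 weeks the count of 6 ranged from 5 to 7 with a library left out. DESeq2 called Gnal as well (adjusted p = 0.0233). With no low-count filter Gnal (adjusted p = 2.26e-05) and Bcl11b (adjusted p = 0.00489) were called as well.

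Outside the striatum the counts of 23, 14 and 7 became 34, 24 and 17 with no low-count filter, and 22 to 27, 13 to 17 and 5 to 10 with a library left out. For the change with age the 175QK772T against 175Q count of 1 became 2 with DESeq2, 5 with no low-count filter and 1 to 2 with a library left out, and the 175Q count of 8 ranged from 7 to 9. The counts of genes falling more in striatum ranged at 10 weeks from 5 to 7 against cortex, 6 to 9 against hippocampus, 7 to 8 against cerebellum and 7 to 9 against brainstem, and at 26 weeks from 7 to 9, 8 to 9, 7 to 8 and 9 to 9 against cortex, hippocampus, cerebellum and medulla. WT counts ranged from 36 to 36 and from 35 to 36. The cause of these shifts was not tested.

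There were 3 reversals at 26 weeks: Rgs9 in cerebellum, 175QK772T against WT, became 0.81 without the 3 libraries that stood apart, Foxp1 in cortex, 175Q against WT, became -0.14 without WT replicate 1 (range with a library left out -0.14 to 0.19), and Ppp1r1b in hippocampus, 175QK772T against 175Q, became 0.33 without 175Q replicate 2 (range -0.36 to 0.33).

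Striatum libraries of equal replicate number across genotypes had deviations from their genotype means that correlated with a median of 0.01 at 10 weeks and -0.10 at 26 weeks. For unequal numbers the medians were -0.03 and 0.05. These values cannot show whether the mice were related. With a replicate block the striatum counts were 9 and 9 for 175Q, 8 and 9 for 175QK772T and 0 and 5 between the mutant genotypes, and outside the striatum 23, 12 and 5 in place of 23, 14 and 7. The ages differ in depth, and its part in the results of low-count genes outside the striatum, such as Rgs9 and Bcl11b in cerebellum, was not tested.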

Other observations

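Cholinergic interneurons are a rare striatal population that shares the tissue with the projection neurons. In 175Q striata at 26 weeks Chat, which makes acetylcholine, had a log2 fold change of -1.97 (adjusted p = 2.33e-05) and the choline transporter gene Slc5a7 one of -2.06 (adjusted p = 0.000149). In 175QK772T against WT they had -1.80 (adjusted p = 0.000153) and -1.79 (adjusted p = 0.00101). Against 175Q the differences were 0.18 (adjusted p = 0.649) and 0.26 (adjusted p = 0.601), which did not pass. Of the 9 projection neuron genes 6 passed, with Rasd2 and Ppp1r1b the largest at 1.58 and 1.15. Gnal, Bcl11b and Foxp1 did not pass either, at 0.38, 0.28 and 0.12. Of all 9 interneuron markers, 3 were called higher in 175QK772T than in 175Q at 26 weeks, beside 13.6% of all genes. Their median log2 difference was 0.29. The summed level of the 9 markers was 207 to 246 CPM in 175Q and 260 to 291 CPM in 175QK772T. Whether Chat and Slc5a7 differ from the projection neuron genes in this respect was not tested.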
